A study of Homo sapiens with 16 samples.

Results

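Activator protein 1 (AP-1) was followed through its genes FOS, FOSB, FOSL1, FOSL2, JUN, JUNB, JUND and ATF3 in 2 carcinoma lines, Ishikawa and T-47D, given 17β-estradiol (E2). The 8 genes were chosen by name, from rows of the count tables of both cell lines, and are 8 of 26364 genes in those tables. All 8 had counts in Ishikawa cells and passed the filter on low counts there. In T-47D cells 7 passed, and FOSL1 was at or near 0 counts.

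AP-1 is a dimer of basic leucine zipper proteins that binds short DNA elements in promoters and enhancers. Jun proteins pair with each other or with a Fos protein, Fos proteins need a Jun partner, and ATF3 pairs with Jun proteins or with itself. Many of these genes are immediate-early genes, whose unstable mRNAs follow growth factor, kinase and stress signals within minutes to hours. Estrogen receptor α is known to act both at its own DNA elements and through AP-1 proteins already on DNA.

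Ishikawa is an endometrioid adenocarcinoma line and T-47D is a line of ductal carcinoma of the breast. Both were kept before treatment in phenol-red-free medium with charcoal-stripped serum, which removes steroid hormones, and then received 10 nM E2 for 2, 4 or 8 h or vehicle (0 h). Each line and time point had 2 replicates, which gave 16 bulk poly(A) RNA-seq libraries with no drug or genetic change besides E2. Each line is a single cancer line, and the replicates are not described as separate cultures, so p-values measure the spread between libraries, which may be technical.

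The libraries held between 41177912 and 64148903 counts, and the biological coefficient of variation came to 6.45% for Ishikawa and 5.02% for T-47D. The estrogen receptor gene ESR1 was at 172 to 247 CPM (counts scaled to library size) in Ishikawa cells and 163 to 203 CPM in T-47D cells. Epithelial markers were present in both lines. PAX8, SOX17, EMX2 and HOXA10, which mark endometrial cells, had at most 2 counts in a T-47D library, and the breast marker GATA3 had at most 4 counts in an Ishikawa library. Of the other T-47D markers, FOXA1 (11.5 to 14.6 CPM), TRPS1 (29.4 to 40.2 CPM) and PGR (0.987 to 18.4 CPM) were also present in Ishikawa cells, at lower CPM than in T-47D cells. TFF1, a breast marker that estrogen induces, was low in T-47D cells (0.582 to 2.7 CPM) and at 0 counts in Ishikawa cells. The leukocyte and endothelial markers PTPRC, CD3E, PECAM1 and CDH5 reached at most 8 counts, but CD68, of the leukocyte list, was at 1.56 to 2.38 CPM in Ishikawa cells and 2.14 to 3.64 CPM in T-47D cells, and COL1A1, from the fibroblast list, was at 153 to 277 CPM in Ishikawa cells and 70.3 to 90.4 CPM in T-47D cells. The rest of the fibroblast list was lower than COL1A1. Across both lines VIM reached at most 1.98 CPM, COL3A1 7.32 CPM and COL1A2 1.53 CPM, and PDGFRB at most 8 counts. In bulk RNA, fewer cells with a transcript and less of it per cell cannot be told apart.

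The 4 late Ishikawa libraries did not separate by their time labels. Their closest pairs, by the root mean square log2 difference over genes, crossed the labels (0.154 and 0.158), while the 4 h pair differed by 0.186 and the 8 h pair by 0.169. Only 2 genes differed between 8 h and 4 h in Ishikawa cells by edgeR's quasi-likelihood test (554 at an unadjusted p under 0.05), compared with 533 in T-47D cells. Ishikawa values at 4 h and 8 h are therefore also given with these 4 libraries as 1 group.

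The bases upstream of JUN, JUNB, JUND, ATF3 and FOSL2 are shown first, since these 5 genes passed a test with E2 and the results turn on them. They are RefSeq sequences (GRCh38.p14), matched letter for letter to GRCh37 (hg19), the build of the alignments. The sequences run 5′ to 3′ on the strand of the gene and are cut where the annotated exons of the gene begin. JUN lies at chromosome 1, 59242517 to 59249720, on the minus strand, and JUND at chromosome 19, 18390504 to 18392432, also on the minus strand. JUNB lies at chromosome 19, 12902300 to 12904129, ATF3 at chromosome 1, 212738676 to 212794119, and FOSL2 at chromosome 2, 28615315 to 28640184, all 3 on the plus strand. JUN, JUNB and JUND have 1 exon each in their canonical transcript, while the other 5 members have 4. The windows are chr1:59249721-59249969 for JUN, chr19:12902050-12902299 for JUNB, chr19:18392433-18392682 for JUND, chr1:212738499-212738675 for ATF3 and chr2:28615475-28615668 for FOSL2. The ATF3 window belongs to the most 5′ RefSeq start searched, and the canonical ATF3 transcript starts at 212782103. The 73 bases next to that RefSeq start lie in an annotated exon and are not printed. The FOSL2 window lies in an intron of a FOSL2 transcript that starts further 5′. Capitals mark TGACATCA or TGACGTCA.
JUN: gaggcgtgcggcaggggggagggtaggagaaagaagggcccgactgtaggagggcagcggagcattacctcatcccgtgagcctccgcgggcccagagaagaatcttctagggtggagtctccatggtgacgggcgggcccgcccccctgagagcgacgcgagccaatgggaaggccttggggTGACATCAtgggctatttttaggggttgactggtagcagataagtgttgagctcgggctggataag
JUNB: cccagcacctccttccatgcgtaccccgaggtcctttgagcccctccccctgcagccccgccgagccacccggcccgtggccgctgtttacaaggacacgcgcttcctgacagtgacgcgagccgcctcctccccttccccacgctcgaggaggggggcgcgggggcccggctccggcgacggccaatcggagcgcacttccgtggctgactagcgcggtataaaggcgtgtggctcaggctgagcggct
JUND: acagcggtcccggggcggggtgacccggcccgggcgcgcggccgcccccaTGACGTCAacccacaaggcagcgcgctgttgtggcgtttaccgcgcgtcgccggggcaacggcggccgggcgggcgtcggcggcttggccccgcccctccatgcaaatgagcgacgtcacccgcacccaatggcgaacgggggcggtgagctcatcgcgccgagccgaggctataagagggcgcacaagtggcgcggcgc
ATF3: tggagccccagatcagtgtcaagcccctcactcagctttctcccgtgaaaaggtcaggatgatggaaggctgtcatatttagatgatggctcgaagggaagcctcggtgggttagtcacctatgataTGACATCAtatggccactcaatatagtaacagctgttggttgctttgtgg
FOSL2: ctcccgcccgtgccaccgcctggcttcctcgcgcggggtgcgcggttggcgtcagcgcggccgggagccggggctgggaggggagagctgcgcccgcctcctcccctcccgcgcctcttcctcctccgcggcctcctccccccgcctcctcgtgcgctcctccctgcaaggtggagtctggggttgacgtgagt

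TGACATCA stood from base -67 to -60 before the RefSeq start of JUN and from -123 to -116 before that of ATF3. TGACGTCA, the cAMP response element, stood from -200 to -193 before that of JUND. On this scale the printed ATF3 bases end at -74. Both strands of the 250 bases upstream of 35116 RefSeq promoters were searched. TGACATCA was in 2.37% of them, TGACGTCA in 1.65%, the AP-1 element TGACTCA in 4.2% and the estrogen response element GGTCANNNTGACC in 0.0399%. The 8 member promoters in the table, 2 of them of ATF3, held TGACATCA in 2, TGACGTCA in 1, and TGACTCA and GGTCANNNTGACC in 0. The marked elements overlapped none of the other motifs searched. TATAAA was in 4 of the 8, those of FOS, FOSB and JUNB and the second of ATF3, and in 10.7% of all promoters. The CArG box, the element of serum response factor, was in 0 of the 8 and in 1.16% of all promoters within these 250 bases. Elements further upstream were not searched, so a gene with no match here may still have one. FOSL1 had no entry in the table, and the promoter at the canonical ATF3 start, 212782103, had none either. The second ATF3 window, 212788110 to 212788359, lies inside the gene. The ATF3 motifs given here are thus not those of its canonical promoter, which was not searched.

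Before E2, the Jun genes made up most of the AP-1 mRNA in both lines. Levels between genes are given as CPM per kb of annotated exon, scaled over all 16 libraries (mean ± SD, n = 2). The CPM given over time are scaled within each line, so their 0 h values differ slightly. In Ishikawa cells JUND was highest at 46.2 ± 1.63, followed by JUNB at 36.5 ± 1.89, JUN at 14.1 ± 1.6, ATF3 at 5.45 ± 0.415, FOSL2 at 1.97 ± 0.153, FOSL1 at 1.2 ± 0.277, FOS at 0.801 ± 0.0574 and FOSB at 0.255 ± 0.0141. The 2 libraries of each gene did not overlap those of its neighbours in this order. In T-47D cells JUND was again highest at 67.8 ± 1.51, and JUN at 48.8 ± 2.32 came before JUNB at 21.1 ± 0.844. ATF3 followed at 5.59 ± 0.390, FOSL2 at 3.49 ± 0.0834, FOS at 0.311 ± 0.144, FOSB at 0.223 ± 0.0317 and FOSL1 at 0.0450 ± 0.0291. The libraries of FOS and FOSB overlapped in T-47D cells, so their order is within the spread. By coding length in place of exon length, JUN came before JUND, ATF3 before JUNB and FOSB before FOS in T-47D cells.

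**Figure D1:**
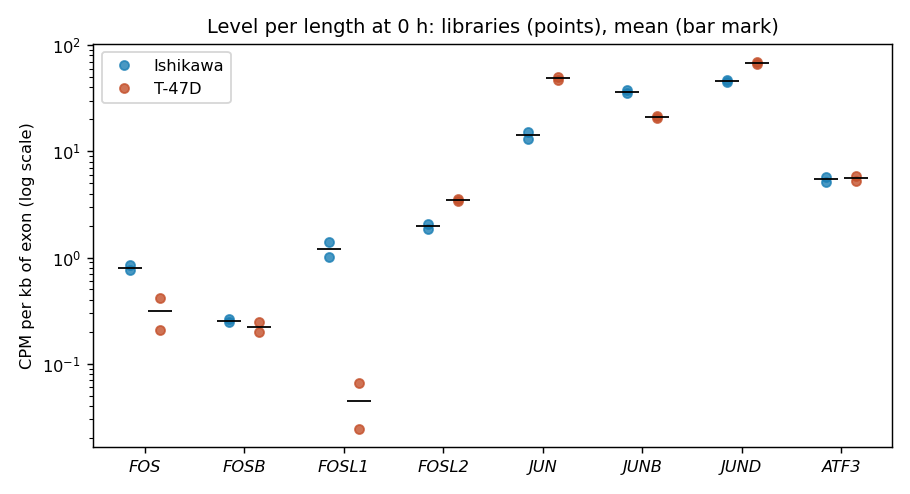
Level of the 8 AP-1 genes at 0 h in CPM per kb of exon on a log axis, with 1 point per library and a mark at the mean of 2 libraries. JUND was highest in both lines, JUN was higher in T-47D cells, and FOSL1 was near 0 in T-47D cells.

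The lines differed at 0 h in 6 of the 8 genes, beside 81.9% of the 17090 genes tested (39.5% higher and 42.4% lower in T-47D cells), so the share of members is near the background. JUN, the founding Jun protein, was at 47 and 55.2 CPM in Ishikawa cells and 171 and 183 CPM in T-47D cells, 3.46-fold higher (95% interval 3.15 to 3.81, adjusted p = 6.62e-16). FOSL2 was 1.77-fold higher in T-47D cells (1.57 to 1.99, adjusted p = 8.65e-09) and JUND 1.47-fold higher (1.34 to 1.61, adjusted p = 9.56e-08). JUNB was 1.73-fold lower (adjusted p = 3.35e-08) and FOS 2.55-fold lower (adjusted p = 0.000306). FOSL1 had 89 and 126 counts in Ishikawa cells and 2 and 5 counts in T-47D cells. The fitted ratio of T-47D to Ishikawa was 0.0381 (95% interval 0.0182 to 0.0797, adjusted p = 5.44e-08) and rests on those few counts. ATF3 was at 20.6 and 23.0 CPM in Ishikawa cells and 21.2 and 23.4 CPM in T-47D cells, with overlapping libraries and a ratio of 1.03 (0.892 to 1.18, adjusted p = 0.734). FOSB had a ratio of 0.878 (0.590 to 1.31, adjusted p = 0.531). Line and any batch of growth or library preparation cannot be told apart.

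With E2, JUN, JUNB and ATF3 fell in Ishikawa cells by 2 h while JUND rose. In T-47D cells JUN and JUNB fell as well, but FOSL2 and ATF3 rose. FOS, FOSB and FOSL1 passed the test at no time point against 0 h in either line where they were tested. Against 0 h, 4 of the 8 genes passed after 2 h in Ishikawa cells, 3 after 4 h and 3 after 8 h, beside 4.35%, 14.3% and 22.1% of 15787 genes. In T-47D cells 4 of 7 passed at each time point, beside 9.3%, 21.5% and 29.7% of 15594 genes. By time, the members' median log2 fold change in Ishikawa cells ran -0.58, -0.25 and -0.25 (in T-47D, 0.13, -0.04 and -0.25), while the median of all genes tested was within 0.01 of 0 in each comparison. The contrasts of a line share its 0 h libraries.

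**Figure D2:**
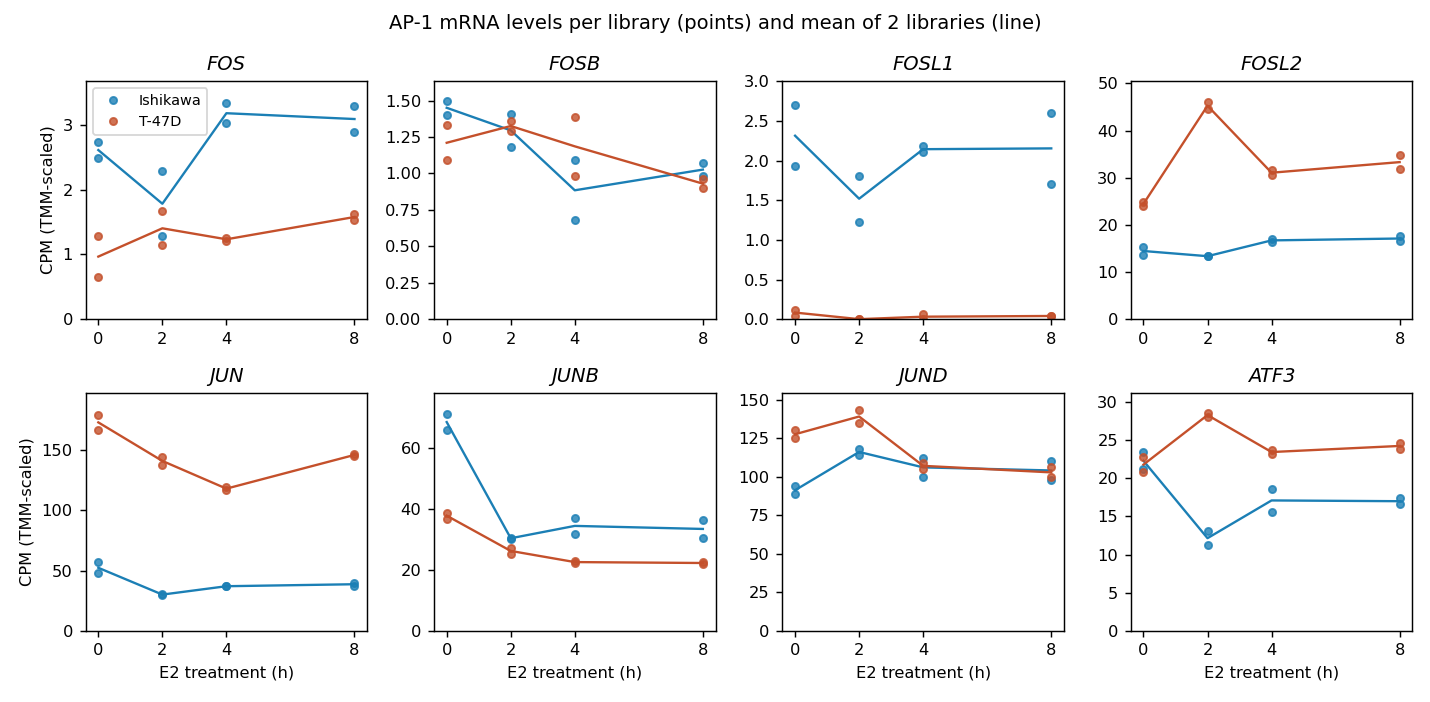
CPM of each AP-1 gene by hours with E2, with 1 point per library and lines through the means of 2 libraries. JUN and JUNB fell in both lines, ATF3 fell in Ishikawa cells and rose in T-47D cells at 2 h, and FOSL2 rose in T-47D cells.

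Among the Jun genes, JUNB showed the largest fall. JUNB, a Jun protein that often tempers the growth-promoting action of JUN, was at 65.6 and 71.1 CPM in Ishikawa cells before E2, 30.1 and 30.5 after 2 h, 31.6 and 37.1 after 4 h, and 30.4 and 36.3 after 8 h. All 6 treated libraries were below both 0 h libraries. The fall was 2.25-fold at 2 h (log2 fold change -1.17 ± 0.093 SE, adjusted p = 6.87e-07), 1.99-fold at 4 h (adjusted p = 3.22e-06) and 2.05-fold at 8 h (adjusted p = 1.93e-06). In T-47D cells JUNB was at 36.7 and 38.7 CPM before E2, 25.1 and 27.2 after 2 h, 22.3 and 22.7 after 4 h, and 21.8 and 22.6 after 8 h. It fell 1.44-fold at 2 h (adjusted p = 3.74e-05), 1.67-fold at 4 h (adjusted p = 3.93e-07) and 1.70-fold at 8 h (adjusted p = 1.81e-07). The gene shares 259 exon bases with HOOK2, which lies on the opposite strand, and whether strand was used in the counting is not given in the sources used here. HOOK2 had a log2 fold change of -0.21 at 2 h (adjusted p = 0.182), -0.42 at 4 h (adjusted p = 0.00239) and -0.50 at 8 h (adjusted p = 0.000549) in Ishikawa cells. In T-47D cells it had -0.06 (adjusted p = 0.619), -0.17 (adjusted p = 0.0568) and -0.20 (adjusted p = 0.0164). Its part in the JUNB values was not tested.

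JUN was at 47.9 and 56.7 CPM in Ishikawa cells before E2, 29.4 and 30.7 after 2 h, 36.8 and 37.2 after 4 h, and 37.5 and 39.8 after 8 h. The treated libraries all lay below the 0 h libraries, with the lowest values at 2 h. JUN fell 1.74-fold at 2 h (log2 fold change -0.80 ± 0.083 SE, adjusted p = 1.24e-05), 1.41-fold at 4 h (adjusted p = 0.000753) and 1.35-fold at 8 h (adjusted p = 0.00175). In T-47D cells it was at 167 and 179 CPM before E2, 138 and 144 after 2 h, 117 and 119 after 4 h, and 145 and 147 after 8 h. There the lowest values came at 4 h. The fall was 1.23-fold at 2 h (adjusted p = 0.000312), 1.47-fold at 4 h (adjusted p = 1.3e-07) and 1.19-fold at 8 h (adjusted p = 0.000596).

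JUND, which is expressed more constantly than JUN or JUNB in most cells, moved the other way in Ishikawa cells. It was at 88.6 and 93.8 CPM before E2, 114 and 118 after 2 h, 100 and 112 after 4 h, and 98.0 and 110 after 8 h, with all treated libraries above those of 0 h. The rise at 2 h was 1.27-fold (log2 fold change 0.35 ± 0.071 SE, adjusted p = 0.00766). It was not called without replicate 1 of 2 h (0.32, adjusted p = 0.117) or without replicate 2 (0.38, adjusted p = 0.0526), fits in which the lone library is assumed to vary like the other groups. At 4 h the log2 fold change was 0.22 (adjusted p = 0.0545) and at 8 h 0.19 (adjusted p = 0.0692), and with the 4 late libraries as 1 group it was 0.20 (adjusted p = 0.0212). The 4 h value passed by DESeq2 (0.22, adjusted p = 0.0353), with no filter (0.20, adjusted p = 0.0228) and without replicate 2 of 4 h (0.30, adjusted p = 0.0278), replicate 1 of 8 h (0.21, adjusted p = 0.046) or replicate 2 of 8 h (0.21, adjusted p = 0.0485). The 8 h value passed with no filter (0.18, adjusted p = 0.0473) and without replicate 1 of 8 h (0.27, adjusted p = 0.0354). In T-47D cells JUND was at 125 and 130 CPM before E2, 135 and 143 after 2 h, 105 and 109 after 4 h, and 99.5 and 106 after 8 h. The 2 h value did not pass (log2 fold change 0.12, 95% interval 0.017 to 0.23, adjusted p = 0.148), and JUND fell 1.19-fold at 4 h (adjusted p = 0.00102) and 1.24-fold at 8 h (adjusted p = 9.65e-05).

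**Figure D3:**
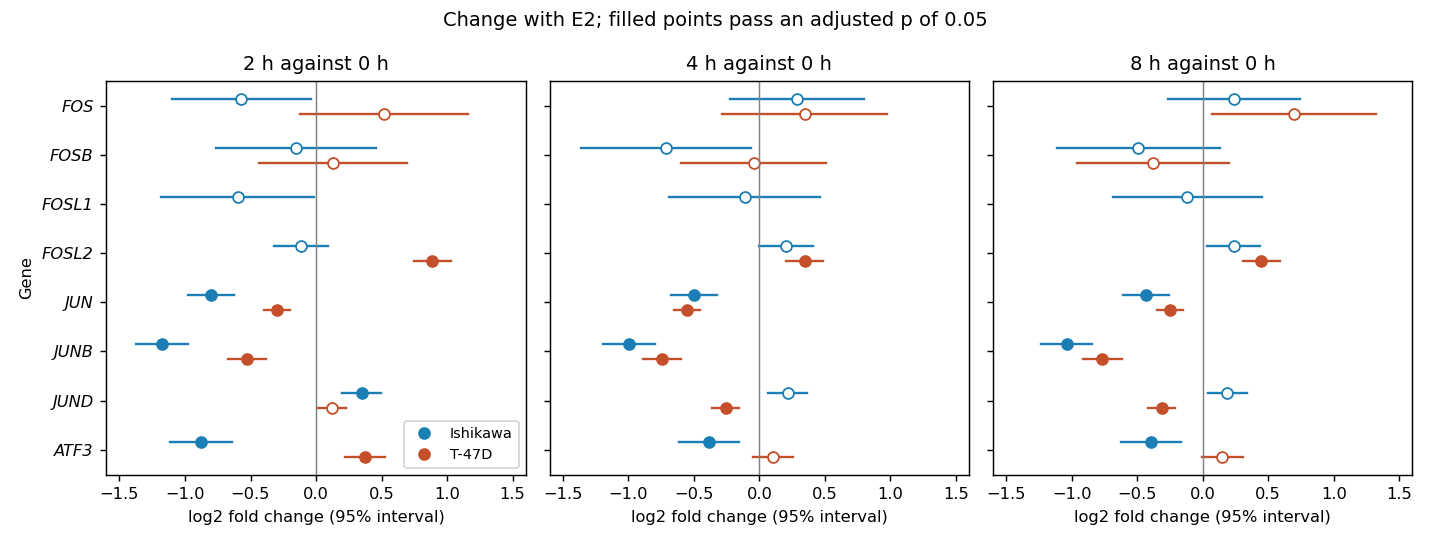
Log2 fold change of each AP-1 gene at 2, 4 and 8 h against 0 h with 95% intervals, in Ishikawa (blue) and T-47D (orange) cells, with filled points at an adjusted p under 0.05. JUN and JUNB are filled and below 0 in all panels, FOSL2 is filled and above 0 in T-47D cells only, where no FOSL1 value was fitted.

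Among the Fos genes, FOSL2 alone passed the test against 0 h. FOSL2 encodes Fra-2, a Fos protein without the strong transactivation domain of FOS. In T-47D cells it was at 24.0 and 24.9 CPM before E2, 44.5 and 46.0 after 2 h, 30.5 and 31.6 after 4 h, and 31.8 and 34.8 after 8 h. Every treated library was above both 0 h libraries, and the 2 h libraries were above all others. The rise was 1.85-fold at 2 h (log2 fold change 0.89 ± 0.066 SE, adjusted p = 2.87e-08), 1.27-fold at 4 h (adjusted p = 0.00103) and 1.36-fold at 8 h (adjusted p = 5.48e-05). In Ishikawa cells it was at 13.6 and 15.3 CPM before E2, 13.3 and 13.4 after 2 h, 16.3 and 17.1 after 4 h, and 16.5 and 17.7 after 8 h. None of these passed, with log2 fold changes of -0.12 (adjusted p = 0.607), 0.20 (adjusted p = 0.178) and 0.23 (adjusted p = 0.0962).

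FOS, the classic partner of JUN, was low in both lines. In Ishikawa cells it had 126 and 116 counts before E2 (2.74 and 2.49 CPM), 2.29 and 1.28 CPM after 2 h, 3.03 and 3.34 after 4 h, and 2.90 and 3.29 after 8 h. The 2 h libraries were the lowest, with a log2 fold change of -0.57 (95% interval -1.10 to -0.039, adjusted p = 0.258). In T-47D cells it had 57 and 27 counts before E2 (1.28 and 0.655 CPM), 1.14 and 1.67 CPM after 2 h, 1.26 and 1.21 after 4 h, and 1.54 and 1.62 after 8 h. At 8 h its log2 fold change was 0.69 (0.070 to 1.32, adjusted p = 0.0893), and without replicate 1 of 0 h, the higher of the pair, it was 1.27 (adjusted p = 0.0103). It also passed with no filter on low counts (0.70, adjusted p = 0.0272). After 2 h the log2 fold change was 0.52 (-0.12 to 1.16, adjusted p = 0.337), and it ran from 0.13 to 1.10 with 1 library left out, none of these fits passing. Times before 2 h were not sampled.

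FOSB, a close relative of FOS, ranged from 0.678 to 1.5 CPM in Ishikawa cells and from 0.899 to 1.39 CPM in T-47D cells. Its lowest adjusted p was 0.134, for a log2 fold change of -0.71 (95% interval -1.36 to -0.062) at 4 h in Ishikawa cells. FOSL1, which encodes Fra-1, ranged from 1.23 to 2.70 CPM in Ishikawa cells, with a log2 fold change of -0.60 at 2 h (-1.18 to -0.012, adjusted p = 0.287). In T-47D cells FOSL1 had 2 and 5 counts before E2, 0 and 0 after 2 h, 4 and 0 after 4 h, and 2 and 2 after 8 h. A count of 0, taken as under 3 counts, allows up to 0.0624 and 0.0704 CPM in the 2 h libraries. This holds if a fragment adds 1 count, and the limit is higher if it adds more. No change could be read.

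ATF3, which represses or activates depending on its partner and is a marker of cell stress, moved in opposite directions in the lines at 2 h. In Ishikawa cells it was at 21.2 and 23.4 CPM before E2, 11.2 and 13.1 after 2 h, 15.6 and 18.6 after 4 h, and 16.6 and 17.4 after 8 h. It fell 1.84-fold at 2 h (log2 fold change -0.88 ± 0.11 SE, adjusted p = 9.61e-05) and 1.31-fold at both 4 h (adjusted p = 0.0272) and 8 h (adjusted p = 0.0168). The later calls depended on single libraries. At 4 h the adjusted p was 0.115 without replicate 1 of 0 h, 0.0576 without replicate 2 of 0 h and 0.185 without replicate 2 of 4 h, and at 8 h it was 0.0887 without replicate 1 of 0 h and 0.0895 without replicate 2 of 8 h. With the 4 late libraries as 1 group the log2 fold change was -0.39 (adjusted p = 0.00442).

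In T-47D cells ATF3 was at 20.8 and 22.8 CPM before E2, 28.0 and 28.6 after 2 h, 23.2 and 23.7 after 4 h, and 23.9 and 24.6 after 8 h. All treated libraries were above those of 0 h. It rose 1.3-fold at 2 h (log2 fold change 0.37 ± 0.073 SE, adjusted p = 0.00201). The log2 fold change was 0.10 at 4 h (adjusted p = 0.353) and 0.15 at 8 h (95% interval -0.0033 to 0.30, adjusted p = 0.136).

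Several levels changed again between 2 h and 8 h. Against 2 h, 2 of 8 genes rose in Ishikawa cells, beside 2.24% of all genes, and 4 of 7 fell in T-47D cells, beside 16.8%. In Ishikawa cells JUN was higher at 8 h than at 2 h by a log2 fold change of 0.37 (adjusted p = 0.0307) and ATF3 by 0.49 (adjusted p = 0.0311). Neither was called without replicate 1 of 2 h (adjusted p 0.177 and 0.0701), replicate 2 of 2 h (0.326 and 0.404), replicate 1 of 8 h (0.105 and 0.0914) or replicate 2 of 8 h (0.0839 and 0.0962). With the 4 late libraries as 1 group, JUN (0.33, adjusted p = 0.0128), ATF3 (0.49, adjusted p = 0.00596), FOSL2 (0.34, adjusted p = 0.0253) and FOS (0.83, adjusted p = 0.032) were higher than at 2 h, while JUNB was not called (0.16, adjusted p = 0.305). Between 8 h and 2 h alone FOSL2 (0.35, adjusted p = 0.0755) passed by DESeq2 (adjusted p = 0.0488) and without replicate 1 (0.0471) or replicate 2 (0.0491) of 0 h, and FOS (0.81, adjusted p = 0.105) without replicate 1 of 2 h (1.27, adjusted p = 0.0465). With no filter on low counts, FOSL2 and FOS also passed between 8 h and 2 h in Ishikawa cells. In T-47D cells FOSL2 was lower at 8 h than at 2 h by a log2 fold change of -0.44 (adjusted p = 0.000108) and JUND by -0.44 (adjusted p = 8.28e-06). JUNB had -0.24 (adjusted p = 0.0281) and was not called without replicate 2 of 2 h (adjusted p = 0.25) or replicate 2 of 8 h (adjusted p = 0.113). ATF3 had -0.22 (adjusted p = 0.0409) and was not called without any 1 of the 6 treated libraries, with adjusted p between 0.0504 and 0.205.

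The responses of the lines were compared directly as the change in T-47D cells minus that in Ishikawa cells. This difference passed in 4 of 8 genes after 2 h, beside 2.67% of 17090 genes, in 2 after 4 h, beside 6.03%, and in 2 after 8 h, beside 10%. At 2 h the difference on the log2 scale was 1.27 for ATF3 (95% interval 0.98 to 1.56, adjusted p = 4.19e-06), 1.02 for FOSL2 (0.78 to 1.26, adjusted p = 5.16e-06), 0.66 for JUNB (0.40 to 0.92, adjusted p = 0.00237) and 0.52 for JUN (0.33 to 0.71, adjusted p = 0.00136). JUN and JUNB thus fell less in T-47D cells at 2 h. JUN had a difference of -0.04 at 4 h (-0.23 to 0.15, adjusted p = 0.906). JUND differed by -0.46 at 4 h (adjusted p = 0.00265) and -0.51 at 8 h (adjusted p = 0.000753). ATF3 differed by 0.50 at 4 h (adjusted p = 0.0318) and 0.54 at 8 h (adjusted p = 0.013). The ATF3 difference was not called at 4 h without replicate 1 of 0 h (adjusted p = 0.106) or replicate 2 of 4 h (0.144) in Ishikawa cells, or without replicate 2 of 0 h (0.133), replicate 1 of 4 h (0.119) or replicate 2 of 4 h (0.082) in T-47D cells. At 8 h it was not called without replicate 1 of 0 h (0.0524) or replicate 2 of 8 h (0.0613) in Ishikawa cells or replicate 2 of 0 h (0.0659) in T-47D cells. JUN differed by 0.18 at 8 h (adjusted p = 0.24) and passed without replicate 1 of 0 h in Ishikawa cells (0.27, adjusted p = 0.0319). For FOSL1 the fitted difference depends on the 0 counts in T-47D cells and is not given.

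The shares of the genes in their summed level per length are a description with no test. JUND made up 43.8% and 43.0% of the sum before E2 in Ishikawa cells and 65.9% and 65.5% after 2 h, while JUNB went from 34.2% and 34.4% to 17.7% and 18.5%. The 8 genes summed to 105 and 113 CPM per kb before E2 and 92.9 and 90.2 after 2 h. JUND went from 45.9% and 46.2% to 51.6% and 51.9% over the same time in T-47D cells, and JUN went from 32.4% and 33.8% to 28.0% and 27.8%. The 4 Fos genes summed to 4.01 and 3.95 CPM per kb before E2 and 6.81 and 7.19 after 2 h in T-47D cells, with FOSL2 at 4.58% and 4.49% of all 8 genes. In Ishikawa cells their sum was 4.06 and 4.61 CPM per kb before E2 and 3.46 and 3.48 after 2 h.

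**Figure D4:**
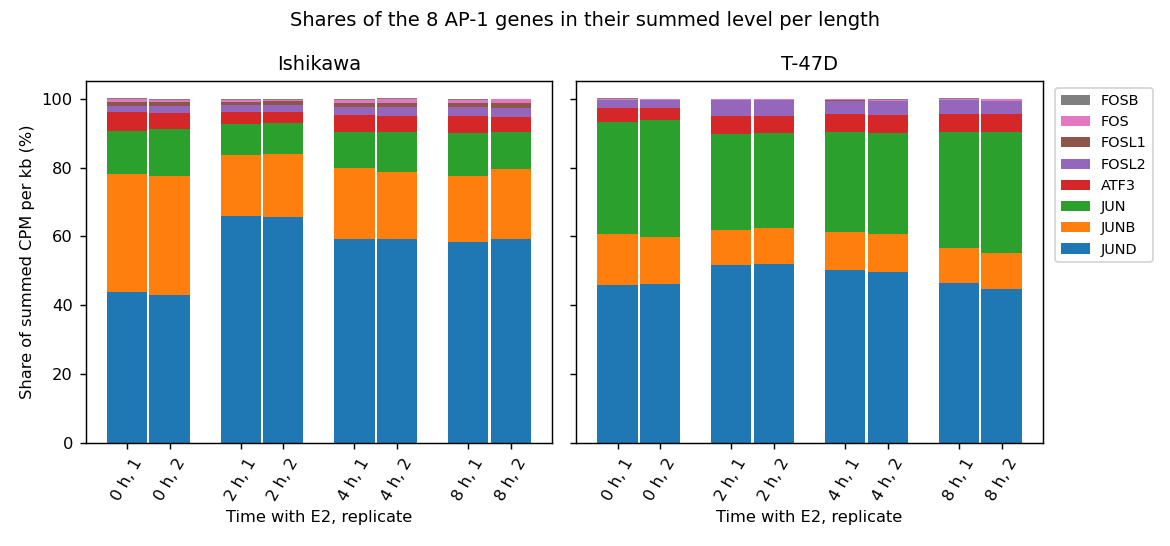
Share of each AP-1 gene in the summed CPM per kb of all 8 genes, with 1 bar per library in order of time with E2. JUND held about the same share of both 0 h Ishikawa bars, 43.8% and 43.0%, and 65.9% and 65.5% of the 2 h bars, while JUN took a larger share in T-47D cells than in Ishikawa cells.

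The other genes of the pathway were counted by list, beside the called share of all genes, which by time came to 4.35%, 14.3% and 22.1% for Ishikawa (T-47D, 9.3%, 21.5% and 29.7%). Of the kinases and transcription factors upstream of AP-1, 20 were tested in Ishikawa cells, of which 1 rose after 2 h, 1 after 4 h and 4 after 8 h, with median log2 fold changes of -0.00173, 0.04 and 0.10. In T-47D cells 19 were tested, of which 1 rose after 2 h, 3 after 4 h and 3 after 8 h, and 2 fell after 8 h, with medians of 0.01, 0.04 and 0.04. After 8 h, 4 of 20 and 5 of 19 are near the shares of all genes. MAPK8, the gene of the kinase JNK1, which phosphorylates JUN, had a log2 fold change of 0.25 at 2 h in Ishikawa cells (adjusted p = 0.0353). ELK4, a partner of serum response factor, had 0.35 at 8 h in Ishikawa cells (adjusted p = 0.00324) and 0.40 at 4 h in T-47D cells (adjusted p = 0.00018). MAPK9, the gene of JNK2, had 0.39 at 8 h in T-47D cells (adjusted p = 1.62e-05).

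Among 18 other leucine zipper genes of the ATF, BATF and MAF type, 15 had enough counts for a test in Ishikawa cells, and 17 did in T-47D cells. In Ishikawa cells 1 fell after 2 h, and 1 rose after 4 h and after 8 h, with median log2 fold changes of 0.02, 0.04 and 0.02. CREB5 had a log2 fold change of 0.51 at 8 h (adjusted p = 0.00863) and MAFG -0.32 at 2 h (adjusted p = 0.0217). In T-47D cells 3 fell and 1 rose at 2 h, and 5 fell at both 4 h and 8 h, with medians of -0.05, -0.15 and -0.15. Over all genes tested, 4.4%, 10.4% and 14.3% fell there at these times. JDP2, a repressor that pairs with JUN, went from 57.7 and 62.7 CPM before E2 to 43.7 and 46.7 after 2 h (log2 fold change -0.41, adjusted p = 7.88e-05). MAF had a log2 fold change of -1.13 at 8 h (adjusted p = 3.22e-05), while MAFF rose by 0.75 at 2 h (adjusted p = 0.0412).

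ZFP36L1, which speeds the decay of mRNAs with AU-rich elements, fell in both lines. It went from 386 and 419 CPM before E2 to 222 and 228 after 2 h in Ishikawa cells (log2 fold change -0.84, adjusted p = 3.24e-07), and from 201 and 212 to 145 and 155 in T-47D cells (-0.46, adjusted p = 2.07e-06). ZFP36L2 fell in T-47D cells (-0.79 at 2 h, adjusted p = 4.52e-09) and had -0.04 in Ishikawa cells (adjusted p = 0.826). Of 8 decay factors, these were the only ones to fall at any time against 0 h, and CNOT7 rose at 4 h (0.31, adjusted p = 0.0082) and 8 h (0.33, adjusted p = 0.00394) in Ishikawa cells. The median log2 fold change of the 8 in Ishikawa cells ran 0.02, -0.02 and 0.04 (in T-47D, -0.07, -0.01 and 0.05).

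Of 29 genes known as AP-1 targets, 19 were tested in each line. In Ishikawa cells 1 rose and 3 fell at 2 h, 2 rose and 3 fell at 4 h, and 3 rose and 5 fell at 8 h, with a median log2 fold change of -0.15, -0.16 and -0.19. At 8 h 12% of all genes rose there and 10.1% fell. In T-47D cells 2 rose and 1 fell at 2 h, 3 rose and 2 fell at 4 h, and 4 rose and 4 fell at 8 h, with medians of -0.05, -0.20 and -0.07, and at 8 h 15.4% of all genes rose there and 14.3% fell. CCND1, the gene of cyclin D1, rose in both lines, from 565 and 579 CPM to 759 and 783 at 2 h in Ishikawa cells (adjusted p = 6.25e-05) and from 165 and 180 to 232 and 249 in T-47D cells (adjusted p = 1.79e-06). GJA1, the gap junction protein connexin 43, rose in T-47D cells from 2.91 and 3.51 CPM at 0 h to 16.6 and 18.2 at 8 h (log2 fold change 2.43, adjusted p = 6.98e-11). The chemokine gene CCL2 fell in T-47D cells at 2 h (-1.10, adjusted p = 0.00234), and PLAU, the gene of urokinase, fell at 8 h in Ishikawa cells (-0.58, adjusted p = 0.00769).

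Likeness of pattern was measured as Pearson's r of log2 CPM over the 16 libraries after the mean of each line was taken out, over 12943 genes. The points share libraries and depth, and the values are descriptions. JUN was most like IER2 (r = 0.941), an immediate-early gene, and TRIB1 (r = 0.941). JUNB was most like TNRC18 (r = 0.959) and DNAJC17 (r = 0.952). FOSL2 was most like SLC25A25 (r = 0.944) and OSGIN1 (r = 0.884), though within Ishikawa cells OSGIN1 had r = 0.287. ATF3 was most like RND3 (r = 0.889), with 0.932 in Ishikawa and 0.617 in T-47D cells, and FGD4 (r = 0.843), with 0.935 and 0.234. JUND was most like VASN (r = 0.931) and MMP16 (r = 0.882).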

How the data were processed

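The 16 libraries (poly(A) RNA, directional kit) were grouped by line and time as labelled. Alignment was to hg19 by HISAT2, and featureCounts, after SAMtools, tallied UCSC Known Genes. The authors deposited these raw counts in 1 table for each line. Their versions and the strand setting are not given in the sources used here, and their own analysis used DESeq2. Between 71.2% and 74.6% of counts from 1 to 10 were even, so a count need not be 1 fragment.

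Here edgeR 4.0.16 under R 4.3.3 was run on the deposited counts (filterByExpr, TMM scaling, quasi-likelihood F-test, Benjamini-Hochberg adjusted p under 0.05 over all genes tested). Each line was fitted with 4 time points and no replicate block. Line differences and the 0 h comparison used all 16 libraries. Standard errors are the log2 fold change over the square root of F. CPM use TMM-scaled sizes, and log2 CPM a prior count of 2. Replicates of a group differed by a chi-square of 3.34 to 9.49 per gene, and none were identical. Exon lengths and positions came from GENCODE on GRCh37.

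Total counts per library were 41177912 to 58918642 in Ishikawa and 41223813 to 64148903 in T-47D cells, and the floor for a count of 0 was 3 counts, for counting error only. Alternatives were DESeq2 1.42.0, RLE scaling, leaving out the filter, a minimum of 10 counts per library, a threshold of 0.01, a replicate block, counts divided by 2, the late Ishikawa libraries as 1 group, other lengths, and each library left out. The scripts were tested on simulated data for 2 h against 0 h, with 200 genes changed by an absolute log2 fold change of 1. Of these, 77.5% were recovered for Ishikawa and 85.5% for T-47D. Of the calls, 8.28% for Ishikawa and 10.9% for T-47D were genes that had not been changed. Both shares are above the rate that the main adjusted p threshold sets. They come from 1 simulated draw per line, with fewer changed genes than the real comparisons called. They therefore do not measure the error rate of the real calls. Calls just under the threshold may be less certain than their adjusted p states. The members and gene lists were chosen with earlier results of these data known. All 8 members are named, and from each list at most 3 called genes per line and time against 0 h, by size of change at a mean of at least 50 counts, and the 2 genes most like each called member. Not all genes this rule allows are described. HOOK2 was named for its overlap with JUNB. ZFP36L2 in Ishikawa cells is given beside its T-47D value.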

Additional observations from a re-analysis of the deposited data

Results flagged for a closer look

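The change with E2 differed between the lines in 8 of the 24 gene and time pairs examined. This was tested by the interaction of line and time point over all 16 libraries. Of all 17090 genes tested, 2.67%, 6.03% and 10% passed at 2, 4 and 8 h. The 24 pairs include those of FOSL1, which was at or near 0 counts in T-47D cells. Differences are the log2 change in T-47D cells minus that in Ishikawa cells. At 2 h the difference was 1.27 for ATF3, 1.02 for FOSL2, 0.66 for JUNB and 0.52 for JUN. ATF3 fell in Ishikawa cells and rose in T-47D cells at 2 h, FOSL2 rose in T-47D cells, and JUN and JUNB fell in both with the larger fall in Ishikawa cells. At 4 h it was 0.50 for ATF3 and -0.46 for JUND, and at 8 h 0.54 for ATF3 and -0.51 for JUND. JUND passed the test as a fall in T-47D cells at both of these times.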

How the results depend on the processing

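No label says whether the replicate numbers mark pairs. Correlations of the deviations of same-numbered libraries were between -0.115 and 0.0533 (Ishikawa) and -0.0547 and 0.0595 (T-47D). They show no strong shared deviation, but pairs with a small one would look the same. With the replicate number as a block, 4 members were called at 2 h in each line and 4 for the line difference. Of all genes, 3.84% were called there in Ishikawa cells, 8.49% in T-47D cells and 2.4% for the line difference. None of the 12 counts of called members changed with the block. Of the alternatives other than leaving out a library, DESeq2, RLE scaling, at least 10 counts in every library and counts divided by 2 left all 12 counts within 1.5 times, and no log2 fold change of a member changed sign. The 8 h against 2 h count in Ishikawa cells, 2 members, was 4 with no filter and 4 with the late libraries as 1 group. It was 0 at an adjusted p of 0.01. At that threshold the T-47D count went from 4 to 2 and the line differences at 4 h and 8 h from 2 to 1 each. The shares of all genes moved as well. For 8 h against 2 h in Ishikawa cells, 2.24% became 5.12%, 4.84% and 0.849% in that order. At 0.01 the T-47D share went from 16.8% to 9.4%, and those of the line differences from 6.03% to 3.12% and 10% to 5.38%. Leaving out 1 library gave 0 to 3 members for 8 h against 2 h in Ishikawa cells, 2 to 4 in T-47D cells, and 1 to 2 for the line differences at 4 h and at 8 h. At 2 h against 0 h it gave 3 to 4 in Ishikawa cells and 4 to 4 in T-47D cells.

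Some uncalled log2 fold changes changed sign when 1 library was left out. They were FOSL1 in Ishikawa cells at 4 h (-0.33 to 0.15) and 8 h (-0.44 to 0.17), FOSB in T-47D cells at 4 h (-0.30 to 0.20), FOS in T-47D cells at 4 h (-0.0467 to 0.93) and at 8 h against 2 h (-0.0804 to 0.46), the line differences of FOS (-0.33 to 0.65) and JUN (-0.16 to 0.0589) at 4 h and of FOSB at 8 h (-0.0293 to 0.26), and ATF3 between the lines at 0 h (-0.0376 to 0.13). By coding length in place of exon length, the order of levels per length in T-47D cells at 0 h had JUN at rank 1, JUND at 2, ATF3 at 3, JUNB at 4, FOSB at 6 and FOS at 7, while the order in Ishikawa cells did not change, and by the longest transcript neither order did. FOS, FOSB and FOSL1 had at most 171 counts in any library.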

Other observations

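Genes of the heat shock and stress response were counted beside all genes, of which 4.35%, 14.3% and 22.1% passed in either direction by time for Ishikawa (T-47D, 9.3%, 21.5% and 29.7%). Of 13 on the list, 1 rose and 3 fell at 2 h in Ishikawa cells, 6 rose and 1 fell at 4 h, and 6 rose and 3 fell at 8 h, with median log2 fold changes of 0.03, 0.15 and 0.23, while in T-47D cells 3 rose and 1 fell at 2 h, 6 rose at 4 h, and 6 rose and 3 fell at 8 h, with medians of 0.07, 0.09 and 0.05. BAG3, a partner of HSP70 chaperones, went from 80.5 and 83.1 CPM before E2 to 233 and 238 after 2 h in Ishikawa cells (log2 fold change 1.53, adjusted p = 6.73e-11 by edgeR), and at 55.4 and 58.1, then 79.6 and 80.5 in T-47D cells (0.50, adjusted p = 1.76e-06). HSPA8, the constitutive HSP70, rose in T-47D cells from 3970 and 4020 CPM to 5710 and 5830 at 8 h (0.53, adjusted p = 3.24e-11) and in Ishikawa cells from 2030 and 2130 to 2720 and 2930 (0.44, adjusted p = 0.000311). GADD45A, a growth arrest gene induced by DNA damage, had a log2 fold change of -0.50 at 2 h in Ishikawa cells (adjusted p = 0.00151), and HMOX1, heme oxygenase 1, which is also on the list of AP-1 targets, had -0.58 (adjusted p = 0.00773).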
